A study of Mus musculus with 12 samples.

Results

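Endothelial marker genes are 7 genes used as markers of the cells that line blood vessels: Sox17, Tek, Tie1, Kdr, Cdh5, Emcn and Pecam1. Their members in these data are the accessible regions (peaks) for which one of the 7 is the nearest protein-coding gene, in it or within 50 kb of its span on the mouse build mm10. That gives 66 peaks of 177240 in all, and 7 genes of 21887 protein-coding genes. Pecam1 has 20 of the peaks, Cdh5 14, Tek 12, Emcn 8, Kdr 6, Tie1 5 and Sox17 1.

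Open chromatin was mapped in 6 mouse skin samples by ATAC-seq, a method that uses the Tn5 transposase to cut and tag accessible DNA. The normal groups are the hair follicle (HF) and the interfollicular epidermis (IFE) of WT mice, with 1 sample each. The tumour groups carry K14CreER or Lgr5CreER, an inducible Cre driven by the promoter of K14 (basal keratinocytes) or Lgr5 (follicle stem cells), together with p53fl/fl, which Cre deletes, and Rosa-YFP+/+, which marks cells with YFP. There is 1 sample of K14 Epcam+ cells, 2 of Lgr5 Epcam+ cells and 1 of Lgr5 Epcam- cells; Epcam is an adhesion molecule on the surface of epithelium. Every animal was a female of mixed strain, and no age, time after induction or pooling of animals is given in the sources used here. The sort used antibodies to CD45, to CD31, to CD140a and to Epcam. CD31 is the protein made from Pecam1, so Pecam1 itself belonged to the sort; the labels give no gate for any antibody. The labels list hair follicle or interfollicular epidermis as the cell type of every sample, and none of the samples is labelled endothelial.

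Endothelial cells line vessels and carry receptors for the growth factors that build them. Kdr is the main receptor for VEGF, Tek is the receptor for angiopoietins and Tie1 is its partner receptor. Cdh5 and Pecam1 are adhesion proteins of the junctions between endothelial cells, Emcn is a sialomucin of capillary and venous endothelium, and Sox17 is a transcription factor of arterial endothelium. Skin epithelium itself holds no vessels, and an accessible region near one of these genes need not act on it, since an enhancer can serve another gene.

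Promoter sequences show where a start-site window was or was not covered by a peak. Of the 7 genes, 4 were matched in a RefSeq promoter table (GRCm38.p6, which has the coordinates of mm10), and the 250 bases before each start site are given here 5′ to 3′ on the strand of the gene. Capitals mark the matches, on either strand, to any of 8 short motifs. The motif of AP-1 was TGANTCA. The motifs of Sox factors were ACAATG or ACAAAG. The motifs of Ets factors were CCGGAA or AGGAAG. The motif of forkhead factors was TGTTTAC. Those of Gata and Tead factors were AGATAA for the former and GGAATG for the latter.
Tek: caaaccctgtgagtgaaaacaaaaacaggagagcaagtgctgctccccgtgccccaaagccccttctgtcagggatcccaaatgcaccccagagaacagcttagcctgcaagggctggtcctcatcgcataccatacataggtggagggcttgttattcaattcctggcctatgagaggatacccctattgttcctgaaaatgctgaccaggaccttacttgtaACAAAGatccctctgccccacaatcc
Kdr: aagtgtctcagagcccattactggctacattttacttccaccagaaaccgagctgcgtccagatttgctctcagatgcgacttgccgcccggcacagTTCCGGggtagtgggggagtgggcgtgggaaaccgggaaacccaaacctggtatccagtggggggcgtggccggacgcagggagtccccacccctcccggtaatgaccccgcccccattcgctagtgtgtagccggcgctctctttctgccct
Tie1: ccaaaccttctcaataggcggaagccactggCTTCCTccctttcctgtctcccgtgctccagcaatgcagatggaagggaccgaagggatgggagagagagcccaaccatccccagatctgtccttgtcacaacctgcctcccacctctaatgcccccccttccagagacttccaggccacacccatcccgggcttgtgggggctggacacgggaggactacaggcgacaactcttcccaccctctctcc
Emcn: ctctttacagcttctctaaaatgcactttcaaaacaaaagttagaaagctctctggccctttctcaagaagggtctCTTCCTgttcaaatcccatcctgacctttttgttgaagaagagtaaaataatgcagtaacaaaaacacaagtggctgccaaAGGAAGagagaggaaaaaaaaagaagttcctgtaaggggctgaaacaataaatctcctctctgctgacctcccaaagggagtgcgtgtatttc

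These windows lie at chr4:94739039-94739288 on the plus strand (Tek), chr5:75978456-75978705 on the minus strand (Kdr), chr4:118489850-118490099 on the minus strand (Tie1) and chr3:137340828-137341077 on the plus strand (Emcn). The Tek and Kdr windows were covered by a peak. The Tie1 window had its nearest peak 1576 bp away and the Emcn window 8124 bp away, so that neither start site was among the called peaks. Tek held 1 match to ACAAAG, which 16.5% of all 32851 promoters of the table hold, and Kdr 1 match to CCGGAA, which 12.03% hold. Tie1 held 1 match and Emcn 2 matches to AGGAAG, which 29.5% hold. A match is a description of the letters only.

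Levels are given as scaled CPM, that is, CPM relative to the counts in the peaks of chromosomes 1 to 14 after TMM scaling, which evens out the composition of the samples. Counts in peaks ran from 32086654 to 62941406 per sample with both sequencing runs summed, and the share of them expected from the density of counts outside peaks ran from 9.16% in Lgr5 Epcam+ sample 1 to 26.0% in HF. Peaks and genes were tested by the quasi-likelihood F test of edgeR. P-values were adjusted (Benjamini-Hochberg) over all 177238 peaks or 18019 genes that passed the count filter. A call needed an adjusted p under 0.05. All 66 member peaks passed the filter. The Lgr5 Epcam+ pair gives the only replicate spread, 1 residual degree of freedom that the lone samples are assumed to share, and as the labels do not say that the pair comes from separate animals, p-values reflect only how far these samples spread, possibly for technical reasons. Comparisons of 1 sample with 1 sample have no p-value. A peak was called there where its log2 ratio reached 2 overall and 1 within both runs. For a gene the limits were 1 and 0.5. On chromosomes 15 to X the counts were of the paired-end run alone, so calls by size there were not checked in both runs. That holds for any gene of the lists below that lies there, while no member does. The 95% intervals (Clopper-Pearson) of these comparisons cover counting error only. The same rule set between the samples of the Lgr5 Epcam+ pair called 0.585% of all peaks higher and 1% lower in sample 1, and 3.01% of genes higher and 2.2% lower. Among the 66 member peaks it called 3 higher (4.55%) and 1 lower (1.52%), and among the 7 genes it called Tie1 higher. The gap within that pair, used below to describe orders of level, is 1 difference and no measure of error. ATAC-seq of bulk cells cannot tell apart more cells with an open region and a wider opening in each cell.

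By median, member peaks lay nearer the density of counts outside peaks in the normal samples than in the tumour samples, as did all peaks. The members' median level over that density was 1.85 times in HF and 1.83 times in IFE. All peaks on chromosomes 1 to 14 gave 1.98 and 2.43 times. In the tumour samples the median was 5.0 times in K14 Epcam+, 4.79 and 3.81 times in Lgr5 Epcam+ samples 1 and 2, and 3.23 times in Lgr5 Epcam-, where all peaks gave 3.67, 4.47, 4.01 and 3.41 times. In HF 38 of the 66 peaks lay under 2 times that density and in IFE 36, against 9 in K14 Epcam+, 11 in each Lgr5 Epcam+ sample and 20 in Lgr5 Epcam-. The share was 57.6% of the 66 against 50.4% of all peaks in HF, and 54.5% against 40.3% in IFE. For K14 Epcam+ it was 13.6% against 20.6%, and for the Lgr5 Epcam+ pair 16.7% against 19.6% and 19.2%. Lgr5 Epcam- had 30.3% against 30.2%, near that of all peaks.

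**Figure D1:**
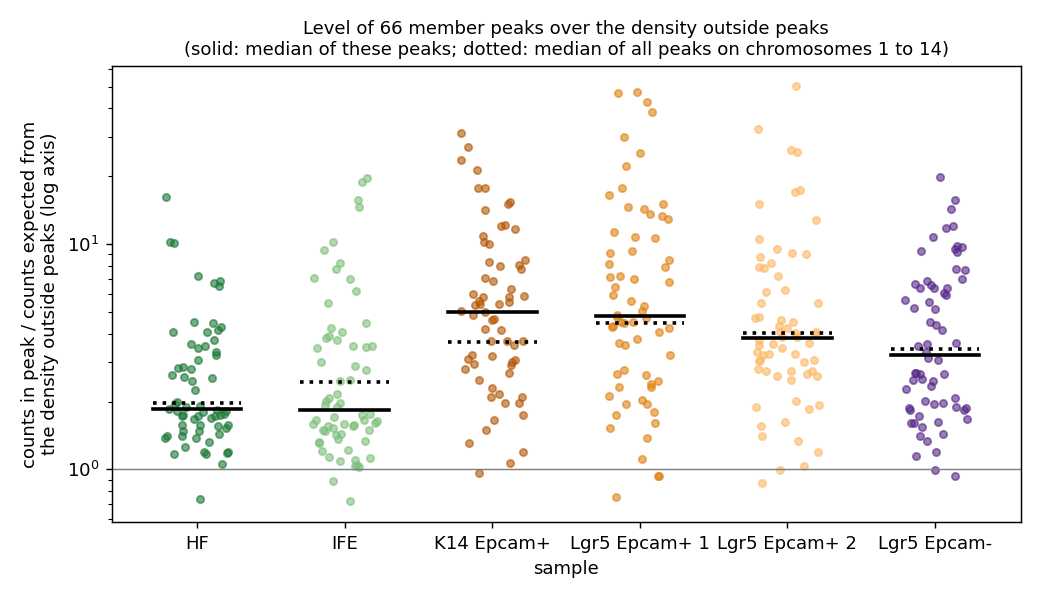
Counts in each of the 66 peaks of endothelial marker genes divided by the counts expected from the density outside peaks (log axis), by sample; each point is a peak, the solid line the median of the 66, the dotted line the median of all peaks on chromosomes 1 to 14. The medians of the 66 peaks run from 1.83 in IFE to 5.0 in K14 Epcam+, and the highest single peak reaches 50.1 in Lgr5 Epcam+ sample 2.

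Sorted by pattern on the log2 scale, with steps of at least 1, the 66 peaks did not share 1 course; each peak was put in 1 class only. HF stood above the other 5 samples at 4 peaks (1 of Sox17, 3 of Tek), and both normal samples stood above all 4 tumour samples at 3 more (2 of Tek, 1 of Pecam1). Tek peak 1, counted under HF, also met that second pattern, which makes 4. All 4 tumour samples stood above both normal samples at 3 peaks (1 each of Cdh5, Emcn and Pecam1), and the 3 Epcam+ tumour samples stood above the normal samples and Lgr5 Epcam- at 1 (Pecam1). Lgr5 Epcam- stood above the other 5 at 4 peaks, 1 each of Tek, Kdr, Cdh5 and Emcn. No peak stood highest in IFE alone by that step. These classes are small; the shares of the 66 and of all peaks were 6.06% against 3.5% for HF, 4.55% against 3.37% for both normal samples, 4.55% against 5.86% for all tumour samples, 1.52% against 2.4% for Epcam+ tumours, 6.06% against 7.24% for Lgr5 Epcam- and 0% against 4.63% for IFE. A further 28 peaks (42.4%) were weak, never reaching the median peak's highest level of 7.18 CPM, and 23 were of mixed course; 41.4% of all peaks were weak and 31.5% mixed.

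**Figure D2:**
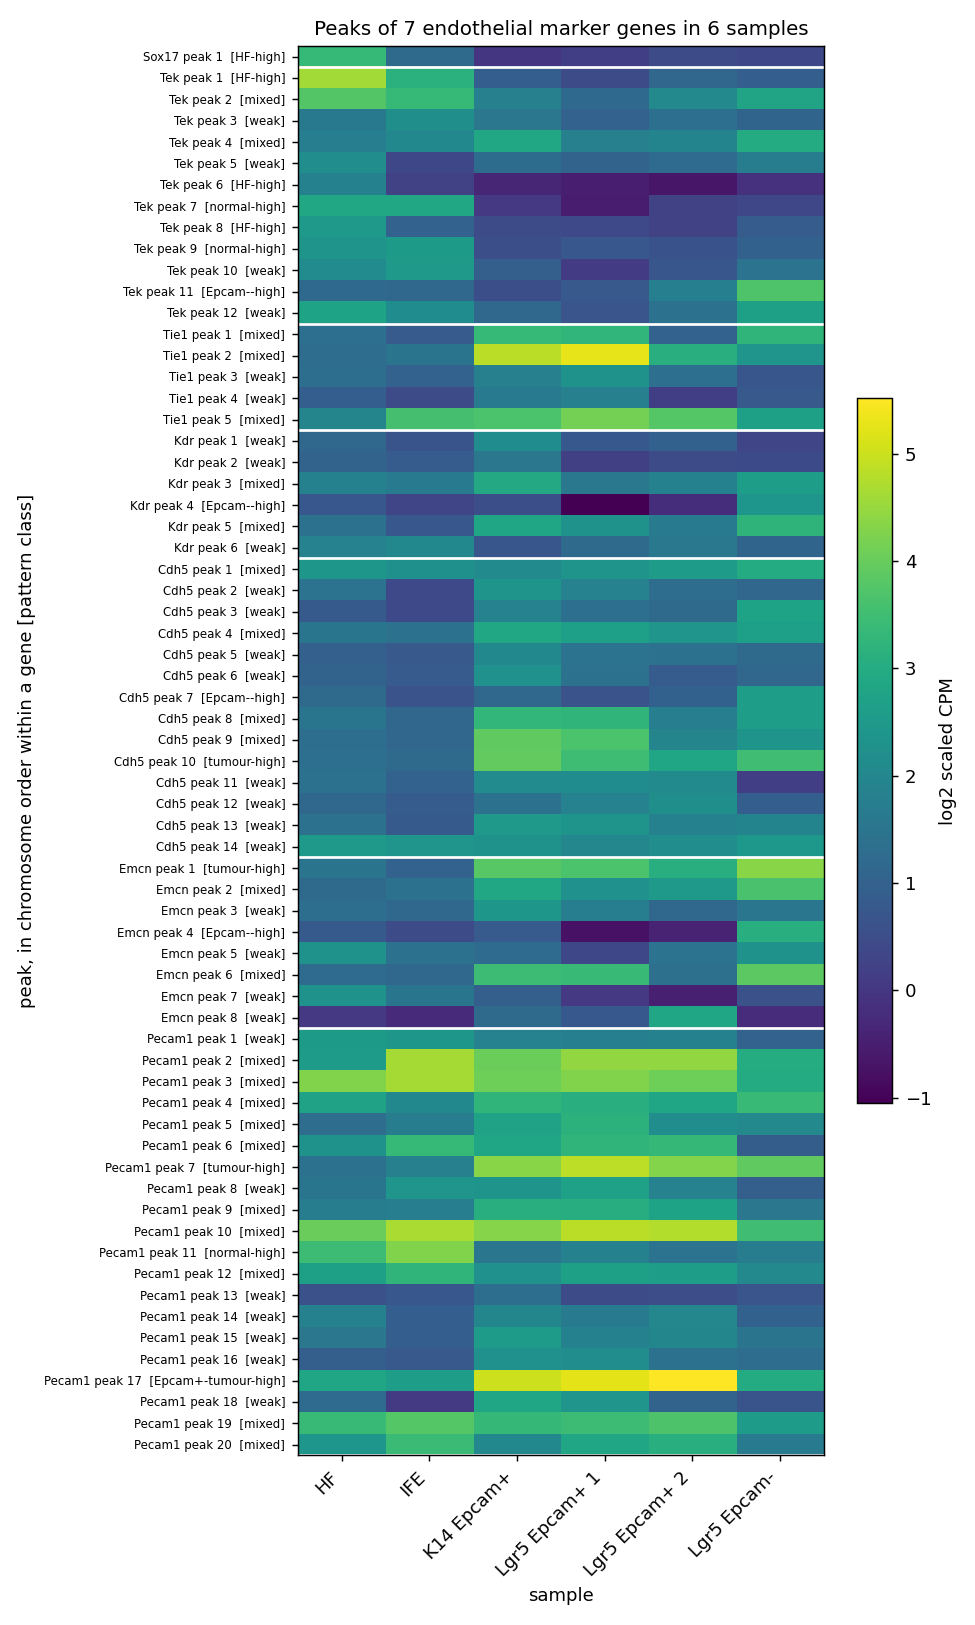
Scaled CPM (log2, colour) of the 66 peaks in the 6 samples, with the peaks of each gene in chromosome order and the pattern class in brackets; Epcam--high stands for peaks highest in Lgr5 Epcam-. Tek peaks 1 and 7 are bright in HF and IFE and dark in all 4 tumour samples, and Pecam1 peak 17 is brightest in the 3 Epcam+ tumour samples.

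Between Lgr5 Epcam+ tumours and HF, 6 of the 66 peaks were higher and 8 lower. Over all peaks, 9.37% were higher and 7.47% lower, and the members' 9.09% and 12.1% were near those shares. The median log2 ratio was 0.17 over the members and 0.01 over all peaks. Scaling by total counts in place of TMM turned the balance over all peaks from 16607 higher and 13238 lower to 14071 higher and 23000 lower, and that of the members to 5 higher and 11 lower. The 8 lower peaks were those of Sox17 (1), Tek (5), Emcn (1) and Pecam1 (1), and the 6 higher ones those of Pecam1 (3), Tie1 (2) and Emcn (1).

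Summed over the peaks of each gene, 2 of the 7 genes fell in Lgr5 Epcam+ against HF, Sox17 and Tek, and none rose. Of all 18019 genes, 2.75% fell and 6.35% rose. The median of all genes lay at a log2 ratio of 0.22 in this comparison, because the scaling was taken from peaks, and the members' values are to be read against it. With scaling taken from the gene sums, chosen after seeing this shift, the median was 0.02, 901 genes rose and 830 fell in place of 1145 and 495, and the same 2 of the 7 genes fell. Subtracting the density outside peaks, which has no test, moved the log2 ratio from 0.68 to 1.53 for Cdh5, from 0.54 to 1.43 for Emcn, from 1.95 to 2.95 for Tie1 and from -3.02 to -3.98 for Sox17, and turned that of Kdr from -0.19 to 0.46.

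**Figure D3:**
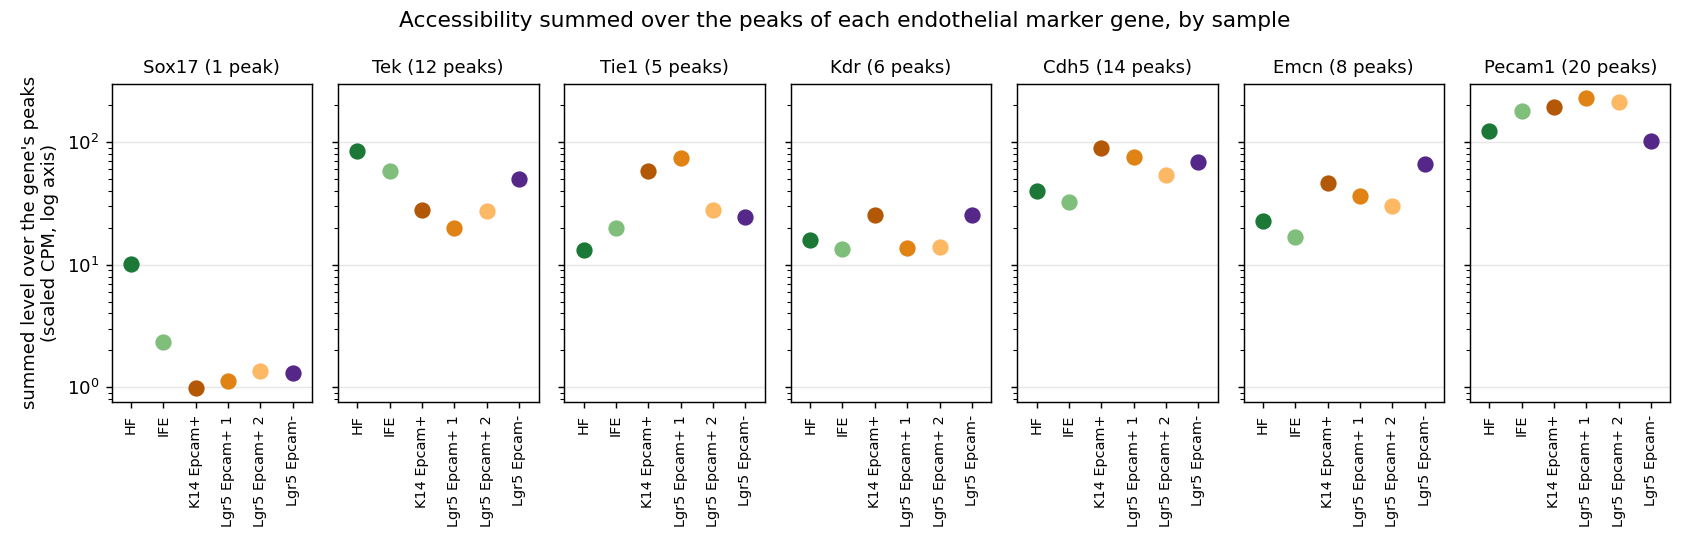
Scaled CPM summed over the peaks of each endothelial marker gene (log axis), 1 point per sample. Sox17 and Tek are highest in HF, Tie1, Cdh5 and Emcn are higher in the tumour samples than in both normal samples, and Pecam1 is lowest in Lgr5 Epcam-; levels of different genes are not comparable because they sum different numbers of peaks.

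Sox17, the transcription factor, was represented by a single peak, at chr1:4543954-4544954, 46528 bp beyond the gene span and 134688 bp from the next protein-coding gene, Rp1. Its level was 10.1 CPM in HF, 2.34 in IFE, 0.995 in K14 Epcam+, then 1.13 and 1.36 in Lgr5 Epcam+ samples 1 and 2, and 1.31 in Lgr5 Epcam-. HF alone stood out, at 7.25 times the density outside peaks, while the other 5 samples lay between 1.2 and 2.02 times. The peak was 3.02 ± 0.56 (SE) lower in log2 in Lgr5 Epcam+ than in HF (edgeR quasi-likelihood test, adjusted p = 0.00265). HF exceeded IFE by 2.09 in log2 (counting interval 1.72 to 2.52). Neighbours in the order of the 4 tumour samples differed by less than the pair. Relative to the median of peaks within 5 Mb, the summed Sox17 ratio was -2.18 in place of -2.90 in Lgr5 Epcam- against HF, and -0.50 in place of -1.18 in K14 Epcam+ against IFE, under the limit for a call. No other peak lay in Sox17 or within 50 kb of it.

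Tek, the angiopoietin receptor, had its highest peaks upstream of and at the start of the gene. Peak 1 (peaks are numbered from the lowest coordinate) lies at chr4:94725445-94726528, 12558 bp before the gene. It stood at 24.5 CPM in HF, 8.80 in IFE, 1.87 in K14 Epcam+, then 1.36 and 2.18 in the Lgr5 Epcam+ pair and 1.90 in Lgr5 Epcam-. The normal and tumour values do not overlap, and HF was highest. Lgr5 Epcam+ fell by 3.79 ± 0.58 in log2 against HF (adjusted p = 0.000797, edgeR), and K14 Epcam+ lay 2.20 below IFE (counting interval -2.65 to -1.83).

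Tek peak 2 (chr4:94738086-94739525) covers the promoter window printed above. It measured 13.5 CPM in HF and 10.2 in IFE, against 3.48 in K14 Epcam+, 2.28 and 4.09 in the Lgr5 Epcam+ pair and 6.94 in Lgr5 Epcam-. It was lower in all 4 tumour samples, least so in Lgr5 Epcam-, and fell by 2.08 ± 0.58 in Lgr5 Epcam+ against HF (adjusted p = 0.0225, edgeR). Inside the gene, peaks 6, 7 and 8 fell as well, by 2.40 ± 0.64, 2.95 ± 0.59 and 2.17 ± 0.56 in log2 (adjusted p = 0.0181, 0.00406 and 0.0159, edgeR); peaks 6 and 8 no longer passed with DESeq2, nor peak 6 with the paired-end run alone (-2.10) or peak 8 with the single-end run alone (-1.59). Peak 9 missed the threshold (log2 ratio -1.70 ± 0.56, adjusted p = 0.0507, edgeR).

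Tek peak 11, inside the gene at chr4:94810225-94811386, went another way. It measured 2.28 CPM in HF, 2.23 in IFE, 1.43 in K14 Epcam+, then 1.73 and 3.42 in the Lgr5 Epcam+ pair and 12.96 in Lgr5 Epcam-. Only the Epcam- sample was high, by 2.33 ± 0.59 in log2 over Lgr5 Epcam+ (adjusted p = 0.0199, edgeR). The summed level of Tek was 83.8 CPM in HF, 57.7 in IFE, 28.1 in K14 Epcam+, then 20.1 and 27.2 in the Lgr5 Epcam+ pair and 50.2 in Lgr5 Epcam-. IFE and Lgr5 Epcam- were closer to each other than the pair, as were K14 Epcam+ and Lgr5 Epcam+ sample 2, while HF stood above the others by more than that gap. The sum fell by 1.83 ± 0.30 in Lgr5 Epcam+ against HF (adjusted p = 0.00888, edgeR).

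**Figure D4:**
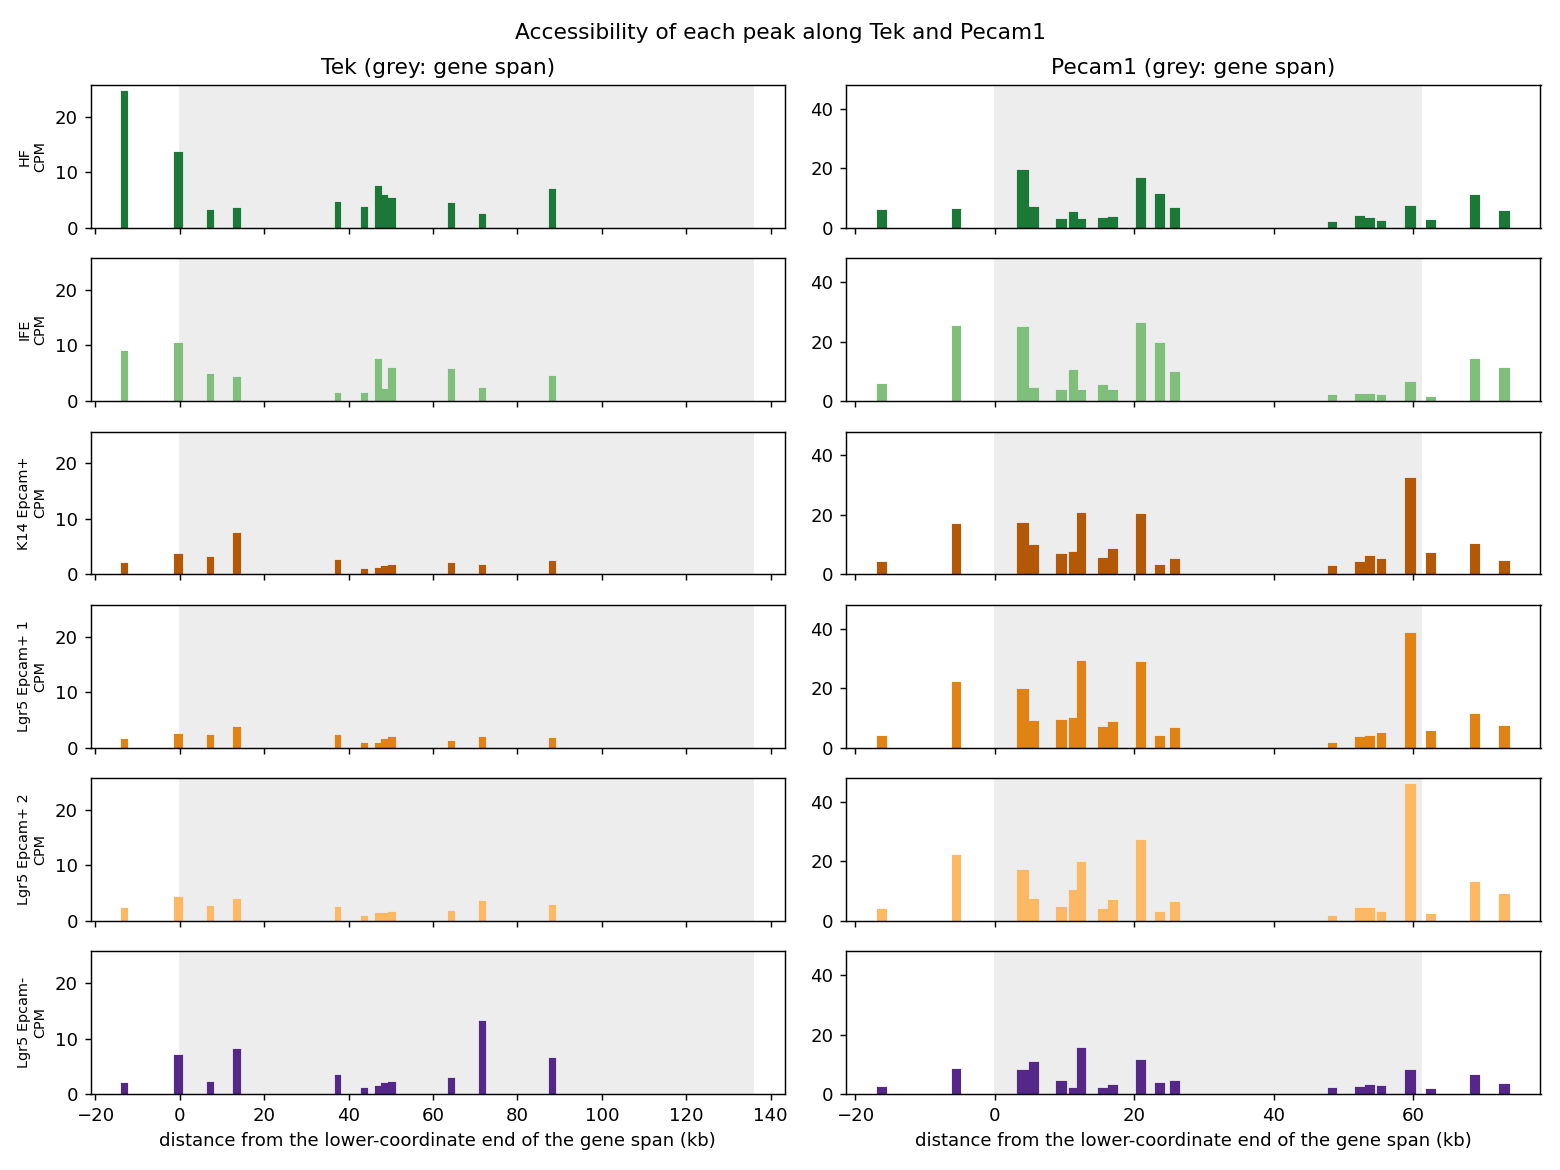
Scaled CPM of each peak (bars, at true width) along Tek and Pecam1 by sample, against the distance in kb from the lower-coordinate end of the gene span (grey). In Tek the tallest bar of HF, peak 1 at the left, falls to 1.36 to 2.18 CPM in the tumour samples and peak 11 rises to 12.96 in Lgr5 Epcam-; in Pecam1 the bar near the right end of the gene reaches 32.2 to 45.7 in the Epcam+ tumour samples.

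Tie1, the partner of Tek, was led by peak 2 (chr4:118472162-118473438), at the end of the gene far from its start site. Its level was 2.45 CPM in HF, 2.80 in IFE, 28.4 in K14 Epcam+, then 38.6 and 8.41 in Lgr5 Epcam+ samples 1 and 2, and 5.19 in Lgr5 Epcam-. All tumour samples were above both normal samples, but the pair differed by 2.19 in log2 (counting interval 2.02 to 2.38), past the limit of the size rule. The rise in Lgr5 Epcam+ against HF was 3.26 ± 0.79 (adjusted p = 0.0117, edgeR) and did not pass with DESeq2. Peak 1, 4802 bp beyond the same end, was at 9.67 and 2.03 CPM in the pair and also differed between its samples by more than the size limit.

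Tie1 peak 5, 15321 bp beyond the start-site end, measured 3.86 CPM in HF, 11.9 in IFE, 12.7 in K14 Epcam+, then 17.8 and 13.9 in the Lgr5 Epcam+ pair and 6.47 in Lgr5 Epcam-. HF was lowest and Lgr5 Epcam- next, with IFE near the Epcam+ tumours. It rose by 2.04 ± 0.58 in Lgr5 Epcam+ against HF (adjusted p = 0.0265, edgeR). Peak 3, the one nearest the start site, stayed between 1.63 and 4.97 CPM in all samples. Summed over its 5 peaks, Tie1 was at 13.3 CPM in HF, 19.9 in IFE, 57.8 in K14 Epcam+, then 74.5 and 28.0 in the pair and 24.4 in Lgr5 Epcam-, and its log2 difference of 1.95 ± 0.54 between Lgr5 Epcam+ and HF did not pass (adjusted p = 0.0505, edgeR). No neighbours in the order of its levels differed by more than the pair, which lay 1.41 apart in log2; without sample 1 the ratio to HF was 1.07 and without sample 2 it was 2.48.

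Kdr, the VEGF receptor, had low peaks throughout. Peak 3 (chr5:75977798-75979097), over the promoter window printed above, measured 3.55 CPM in HF, 3.13 in IFE, 7.55 in K14 Epcam+, then 2.99 and 3.57 in the Lgr5 Epcam+ pair and 6.17 in Lgr5 Epcam-. K14 Epcam+ and Lgr5 Epcam- were higher than the rest, and the peak passed no test or size limit. Peak 5, 10832 bp beyond the start-site end, was highest in the same samples in the reverse order, with 9.34 CPM in Lgr5 Epcam- and 7.20 in K14 Epcam+ against 1.65 in IFE. Peak 4 (chr5:75987364-75988364), 8292 bp beyond that end, was at 5.25 CPM in Lgr5 Epcam- and between 0.484 and 1.66 in the other 5 samples, a log2 difference of 2.96 ± 0.61 from Lgr5 Epcam+ (adjusted p = 0.00765, edgeR). Summed levels were 15.8 CPM in HF, 13.5 in IFE, 25.2 in K14 Epcam+, then 13.7 and 13.9 in the pair and 25.5 in Lgr5 Epcam-, and the gene was called in no comparison. Lgr5 Epcam- and K14 Epcam+ lay closer together than the pair, and above the other samples by more than that gap. The gap was only 0.023 in log2, where the standard error of Lgr5 Epcam- against Lgr5 Epcam+ was 0.37.

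Cdh5, the cadherin of endothelial junctions, had 14 peaks, none of which was called in Lgr5 Epcam+ against HF. The highest was peak 10, inside the gene at chr8:104121374-104122419, with 2.55 CPM in HF, 2.34 in IFE, 15.3 in K14 Epcam+, then 11.2 and 6.96 in the Lgr5 Epcam+ pair and 11.4 in Lgr5 Epcam-. All 4 tumour samples were above both normal samples, at 9.10 to 17.8 times the density outside peaks against 1.75 and 1.93. The difference between Lgr5 Epcam+ and HF was 1.83 ± 0.64 in log2 and did not pass (adjusted p = 0.0629, edgeR), while K14 Epcam+ exceeded IFE by 2.69 (counting interval 2.34 to 3.11). Peak 13, at the gene end of higher coordinate, stayed between 1.76 and 5.53 CPM. Peak 7 was highest in Lgr5 Epcam-, 6.11 CPM against 1.54 and 2.0 in the pair (log2 difference 1.79 ± 0.56, adjusted p = 0.0494, edgeR), and that call was lost with DESeq2 and with the single-end run alone. The summed level was 40.0 CPM in HF, 32.5 in IFE, 89.2 in K14 Epcam+, then 74.9 and 53.5 in the pair and 68.7 in Lgr5 Epcam-; no neighbours in that order differed by more than the pair.

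Emcn, the sialomucin, had 6 of its 8 peaks before the gene and 2 inside it. Peak 1 (chr3:137292884-137293989), 47073 bp before the gene, measured 2.79 CPM in HF, 2.01 in IFE, 14.02 in K14 Epcam+, then 12.6 and 8.56 in the Lgr5 Epcam+ pair and 20.4 in Lgr5 Epcam-. The tumour samples were all higher than the normal samples, and Lgr5 Epcam+ exceeded HF by 1.92 ± 0.61 in log2 (adjusted p = 0.0419, edgeR), a call lost with the paired-end run alone and with total counts. Peak 4 (chr3:137313345-137314345) stood at 8.60 CPM in Lgr5 Epcam- and at 0.599 to 1.79 in the other 5 samples. That difference, 3.67 ± 0.58 in log2 from Lgr5 Epcam+, was the largest of any member peak in that comparison (adjusted p = 0.00201, edgeR).

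Emcn peak 7, inside the gene, was instead highest in HF, with 5.03 CPM there, 2.84 in IFE and 1.04 and 0.725 in the Lgr5 Epcam+ pair. It fell by 2.50 ± 0.58 in Lgr5 Epcam+ against HF (adjusted p = 0.00863, edgeR). Peaks 6 and 8 differed within the pair by more than the size limit, in opposite directions: 10.6 and 2.58 CPM at peak 6, 1.68 and 6.99 at peak 8. Summed, Emcn was at 22.8 CPM in HF, 16.9 in IFE, 46.1 in K14 Epcam+, then 36.1 and 30.3 in the pair and 66.1 in Lgr5 Epcam-. Every other step in order of level was wider than the gap within the pair (0.255 in log2), and Lgr5 Epcam- was the highest.

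Pecam1, the gene of CD31, had the most peaks of the 7 and a summed level of 122.6 CPM in HF, 177.8 in IFE, 192.3 in K14 Epcam+, then 227.4 and 210.6 in the Lgr5 Epcam+ pair and 100.8 in Lgr5 Epcam-. Its steps in order of level were wider than the gap within the pair (0.111 in log2), with Lgr5 Epcam- lowest. The step from K14 Epcam+ to IFE was 0.113, and the summed gene passed no test or size limit. Over the density outside peaks, which allows for peak width, it stood at 3.81 times in HF, 6.68 in IFE, 10.1 to 15.3 in the Epcam+ tumours and 4.72 in Lgr5 Epcam-. On that scale it was the highest of the 7 genes in IFE and Lgr5 Epcam+ sample 2, but not in the other 4 samples. Peak 17 (chr11:106713150-106714397), at the gene end of higher coordinate, had 7.07 CPM in HF, 6.11 in IFE, 32.2 in K14 Epcam+, then 38.2 and 45.7 in the pair and 7.92 in Lgr5 Epcam-. The 3 Epcam+ tumours were high and the other 3 samples lay close together. It rose by 2.57 ± 0.41 in Lgr5 Epcam+ against HF (adjusted p = 0.00101, edgeR) and was lower by 2.40 ± 0.40 in log2 in Lgr5 Epcam- than in Lgr5 Epcam+ (adjusted p = 0.00284, edgeR).

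Pecam1 peak 7, inside the gene at chr11:106666126-106667171, was high in every tumour sample. It measured 2.66 CPM in HF, 3.48 in IFE, 20.4 in K14 Epcam+, then 28.9 and 19.6 in the pair and 15.2 in Lgr5 Epcam-, and rose by 3.19 ± 0.55 in Lgr5 Epcam+ against HF (adjusted p = 0.00169, edgeR). Peak 11 took the reverse course, with 11 and 19.3 CPM in HF and IFE and 2.73 to 3.57 in the tumour samples (log2 ratio of Lgr5 Epcam+ to HF -1.80 ± 0.55, adjusted p = 0.0363, edgeR). Peak 10 was open in all 6 samples, 10.2 to 38.7 times the density outside peaks, and peak 3 likewise, 6.35 to 22.3 times. Peak 18, the other peak at the gene end, was at 7.0 CPM in K14 Epcam+ and 1.04 in IFE.

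Pecam1 peak 2 (chr11:106648160-106649293), 4920 bp beyond the gene end of lower coordinate, separated HF from IFE. It measured 5.93 CPM in HF, 24.8 in IFE, 16.5 in K14 Epcam+, then 21.9 and 21.7 in the pair and 8.10 in Lgr5 Epcam-. HF and Lgr5 Epcam- were low and IFE was with the Epcam+ tumours. It rose by 1.88 ± 0.46 in Lgr5 Epcam+ against HF (adjusted p = 0.0121, edgeR), and HF lay 2.05 below IFE in log2 (counting interval -2.31 to -1.82).

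Between Lgr5 Epcam- and Lgr5 Epcam+, 4 of the 66 peaks were higher and 4 lower, against 6.58% and 5.49% of all peaks, shares that the members' 6.06% and 6.06% were near. The 4 higher peaks belonged to 4 genes (Emcn peak 4, Kdr peak 4, Tek peak 11, Cdh5 peak 7). They are the Epcam--high peaks of the classes above, which were sorted on the same levels and add no separate evidence. All 4 lower peaks were of Pecam1: peaks 2, 6, 10 and 17. Peak 6 measured 9.47 and 10.1 CPM in the pair and 1.84 in Lgr5 Epcam- (log2 difference -2.41 ± 0.65, adjusted p = 0.0267, edgeR); peaks 2 and 10 passed narrowly (adjusted p = 0.0486 and 0.0386, edgeR) and not with DESeq2. As summed genes none of the 7 passed, where 2.15% of all genes were higher and 2.57% lower. At an unadjusted p under 0.05 there were 4 of the 7, and 18.9% of all genes. Tek came closest, with a log2 difference of 1.09 ± 0.31 (adjusted p = 0.0725, edgeR), followed by Pecam1 at -1.12 ± 0.33 (0.0864) and Emcn at 0.99 ± 0.30 (0.0945). Tek passed with total counts (1.27), with peaks within 10 kb (1.145) and with scaling from gene sums (1.19). Emcn passed with total counts (1.18) and with scaling from gene sums (1.10).

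Between Lgr5 Epcam+ and K14 Epcam+ tumours no member peak was called, and of all peaks 0.00113% were higher and 0.00564% lower. At an unadjusted p under 0.05 there were 3 member peaks, Emcn peak 4 and Kdr peaks 1 and 3, all lower in Lgr5 Epcam+; their share of 4.55% is near the 4.68% of all peaks at that level, and DESeq2 called 0 as well. No member gene was called either (0.00555% of all genes higher and 0.00555% lower). Kdr, at -0.87 ± 0.37 in log2 (adjusted p = 0.923, edgeR), differed most and was the 1 member gene with an unadjusted p under 0.05, as were 3.62% of all genes. Whether peaks changed differently in Lgr5 Epcam+ against HF and in K14 Epcam+ against IFE was tested as well: no member peak passed, and of all peaks 0.000564% were higher and 0% lower. Unadjusted, 3 member peaks (4.55%) had p under 0.05, against 6.21% of all peaks, with Pecam1 peak 2 first (difference of log2 ratios 2.46 ± 0.66, adjusted p = 0.494, edgeR).

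In K14 Epcam+ against IFE, 11 member peaks were higher and 3 lower by the size rule, against 7.42% and 5.97% of all peaks (16.7% and 4.55% of the members). The 11 were 2 of Tie1, 1 of Kdr, 3 of Cdh5, 2 of Emcn and 3 of Pecam1, and the 3 lower ones were Tek peaks 1 and 7 and Pecam1 peak 11. Tie1 peaks 1 and 2 and Emcn peak 6, among the 11, also passed the size rule within the Lgr5 Epcam+ pair. Tie1 peak 2 moved most, by 3.31 in log2 (counting interval 3.01 to 3.69), then Cdh5 peak 9 by 2.78, from 2.16 to 15.2 CPM. The 3 lower peaks were also lower in Lgr5 Epcam+ against HF. As summed genes, Tie1 (log2 ratio 1.54), Cdh5 (1.45) and Emcn (1.45) were higher and Sox17 (-1.18) and Tek (-1.04) lower, where 9.38% of all genes were higher and 8.5% lower. The ratio of Tek fell under the limit for a call with peaks within 10 kb (-0.90), with scaling from gene sums (-0.94), with the runs summed on all chromosomes (-0.93) and with the single-end run alone (-0.93), and that of Sox17 did with the paired-end run alone (-0.97). With no replicate on either side, these values describe the 2 samples.

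HF and IFE differed at few member peaks by that rule: Sox17 peak 1 was higher in HF and Pecam1 peak 2 lower, where 1.72% of all peaks were higher and 0.749% lower. With the single-end run alone both lay under the limit, at 1.82 and -1.83. Sox17 was the only member gene called, higher in HF, against 1.73% of genes higher and 3.26% lower. In Lgr5 Epcam- against HF, 7 member peaks were higher and 3 lower, against 7.51% and 6.59% of all peaks. The higher ones were 4 of Emcn (peaks 1, 2, 4 and 6), Tek peak 11, Cdh5 peak 10 and Pecam1 peak 7, and the lower ones Sox17 peak 1 and Tek peaks 1 and 7. As summed genes Emcn was higher (log2 ratio 1.53, and 0.99 with peaks within 10 kb, under the limit) and Sox17 lower (-2.90), where 11.7% of genes were higher and 7.35% lower. The comparisons of Lgr5 Epcam+ and Lgr5 Epcam- with HF share the HF sample, and each is given with its own values.

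A wider list of 20 other endothelial genes (among them Flt1, Eng, Erg, Vwf, Cldn5 and Cd34) gives levels at further genes used as markers of that cell type. None of the 20 was at 0 in any sample, and the lowest level was 5.87 CPM, of Prox1, the regulator of lymphatic endothelium. Counts outside peaks came to 0.643 CPM per kb in Lgr5 Epcam+ sample 1 and 1.39 in HF, so a level above 0 is by itself no sign of an open region. Their summed level was 814.7 CPM in HF, 905.0 in IFE, 1114 in K14 Epcam+, then 1318 and 1164 in the Lgr5 Epcam+ pair and 1002 in Lgr5 Epcam-. In Lgr5 Epcam+ against HF 2 of the 20 rose and none fell, where 6.35% of all genes rose and 2.75% fell. The median log2 ratio was 0.42, against 0.22 for all genes. Those that rose were Angpt2, an angiopoietin that can block Tek (1.43 ± 0.31, adjusted p = 0.0212, edgeR), and Flt1, a VEGF receptor (1.40 ± 0.34, adjusted p = 0.0303, edgeR). In Lgr5 Epcam- against Lgr5 Epcam+ none rose and 2 fell, where 2.15% of all genes rose and 2.57% fell. Those that fell were Lyve1, a receptor of lymphatic endothelium and some macrophages (-1.75 ± 0.41, adjusted p = 0.0410), and Mmrn2, a matrix protein of endothelium (-1.35 ± 0.33, adjusted p = 0.0469, both edgeR). The part of endothelial cells in the members' values was not tested.

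The ligands and other receptors of the same pathways make a list of 13 genes, which shares Flt1, Flt4 and Angpt2 with the one above. In Lgr5 Epcam+ against HF 6 of the 13 rose and none fell, where 6.35% of all genes rose and 2.75% fell. The list was chosen with earlier results of these data known, so its share beside that of all genes is a description only. The median log2 ratio of the 13 was 0.70, against 0.22 over all genes. Vegfc, the growth factor of lymphatic vessels, went from 11.6 CPM in HF to 49.3 and 49.1 in the pair (2.08 ± 0.34, adjusted p = 0.00877, edgeR), and Vegfa, the ligand of Kdr, from 82.2 to 367.4 and 208.7 (1.81 ± 0.41, adjusted p = 0.0248, edgeR). Pgf, Angpt2, Flt1 and Nrp2 were the others. In Lgr5 Epcam- against Lgr5 Epcam+ 1 of the 13 rose and none fell, against 2.15% and 2.57% of all genes. It was Angpt1, the activating ligand of Tek, with 31.7 and 62.0 CPM in the pair and 141.8 in Lgr5 Epcam- (1.60 ± 0.40, adjusted p = 0.0499, edgeR). By the size rule 5 were higher in K14 Epcam+ against IFE and 7 in Lgr5 Epcam- against HF, and none was lower in either. Over all genes 9.38% and 11.7% were higher in those comparisons, and 8.5% and 7.35% lower.

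Markers of other cells moved with some of these groups. In Lgr5 Epcam-, where Emcn, Kdr, Tek and Cdh5 each had a peak that rose, 5 of 10 fibroblast and pericyte genes rose against Lgr5 Epcam+ and none fell; their summed level was 1001 CPM there and 489.8 to 589.9 in the other 5 samples, and Rgs5, a pericyte marker, and Col1a2, a collagen of fibroblasts, rose by 2.72 ± 0.42 and 3.04 ± 0.30 in log2 (adjusted p = 0.0126 and 0.00238, edgeR). Of 5 keratinocyte genes 4 fell there, with a summed level of 460.7 CPM against 1154 to 1788. Epcam, by which these groups were sorted, was among the 4 (log2 difference -2.32) and is no independent marker of them. Krt14 (-2.20), Krt5 (-2.70) and Cdh1 (-1.59) were the others, and Trp63 was not called (-1.27). Over all genes 2.15% rose and 2.57% fell in Lgr5 Epcam- against Lgr5 Epcam+. Leukocyte genes, 9 of 10 measured, had sums of 164.3 CPM in HF and 217.6 to 273.5 in the other samples. None was called in Lgr5 Epcam- against Lgr5 Epcam+. In Lgr5 Epcam+ against HF 1 of the 9 rose, Ptprc (1.47 ± 0.33, adjusted p = 0.0232, edgeR), and none fell. Over all genes 6.35% rose and 2.75% fell in that comparison. In HF, where Sox17 and Tek were highest, 5 follicle stem cell genes summed to 1368 CPM against 506.3 to 732.9 in the other samples. Of these, Lgr5, Lhx2 and Krt15 fell in Lgr5 Epcam+ against HF, as did 2.75% of all genes. Nfatc1, at 540.9 CPM in HF, was not called (log2 ratio -0.92), nor was Sox9, which went the other way (0.50). Krt15 was at 178.9 CPM in HF and 166.3 in IFE. The part of these markers' cells in the members' values was not tested. None of the genes measured in these lists was at 0 in any sample, which the density of counts outside peaks would give by itself.

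For each member whose level spanned at least 1 in log2, the genes of most similar course over the 6 samples were named by the smallest root mean square difference of centred log2 CPM. Sox17 was most like Egfem1 (0.17) and Sorcs3 (0.18) among 18011 genes compared, whose median was 1.21. Tek was most like Htra4 (0.06) and Atp10b (0.11), Tie1 like Rapgef3 (0.14) and Mmp9 (0.16), and Cdh5 like Tpm1 (0.08) and Nbea (0.11). Emcn was most like Myo3b and F13a1 (both 0.13) and Pecam1 like Dnah2 and Atp6v1e1 (both 0.06). None of these genes was in the lists above. Kdr spanned 0.91 and was left out.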

How the data were processed

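The deposited files hold raw counts per peak for 12 runs of 6 samples, with 1 shared peak list. Per the submitters' processing notes, the authors used Bowtie2, HOMER, bedtools and HTSeq on mm10; no version, duplicate filter or peak-calling setting is given. Every sample was run both single-end and paired-end; counts of its runs were summed as 1 sample (paired-end alone on chromosomes 15 to X, where no member lies). Peaks were given to the nearest RefSeq protein-coding gene span within 50 kb, which gave 146665 peaks a gene. Counts were tested with edgeR 4.0.16 under R 4.3.3 (filterByExpr, minimum count 10; TMM of peaks on chromosomes 1 to 14; robust quasi-likelihood fit of all 6 samples); log2 ratios of single samples use a prior count of 2. DESeq2 1.42.0 was an alternative. The fit was tested on simulated counts. HTSeq's counts outside peaks were spread over 2722.4 Mb, less the 206.4 Mb in peaks, for the density. Members and gene lists were chosen with earlier results of these data known. The text names, for each gene, the peak of highest mean level, the most changed called peak of each comparison and the peaks within 1 kb of a gene end; other called peaks were named after their values were seen. The marker gene Fcer1g was not matched. Motifs were scanned in promoters, an addition, and peak sequences were not used here. A further allele that the tumour groups share is not reported here.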

Additional observations from a re-analysis of the deposited data

How the results depend on the processing

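Counts of member peaks stayed within 1.5 times their value in 70 of 84 alternative results. The 70 include the counts of 0 in Lgr5 Epcam+ against K14 Epcam+, which stayed at 0. They also include results without the count filter, which every member peak had passed. In Lgr5 Epcam- against Lgr5 Epcam+, 2 peaks were lower with the single-end run alone and 2 with DESeq2. In HF against IFE, 0 were higher with the single-end run alone and 0 with peaks within 10 kb, 0 were lower with total counts and 0 with the single-end run alone, and a log2 limit of 1 gave 7 higher and 4 lower. That limit gave 29 higher and 9 lower in K14 Epcam+ against IFE, and 17 higher and 12 lower in Lgr5 Epcam- against HF, where peaks within 10 kb gave 4 and 1. Of 414 alternative results for genes, 5 newly passed a test, none lost one, 7 with a call by size fell under the limit, and 8 turned sign, none of them called; among these were Cdh5 in Lgr5 Epcam- against Lgr5 Epcam+ within 10 kb (-0.04) and Pecam1 in Lgr5 Epcam+ against K14 Epcam+ with total counts (-0.006). Of 262 for called peaks, 17 lost a tested call, 7 fell under the size limit and none turned sign. Over all peaks, total counts moved the split in HF against IFE from 3054 higher and 1328 lower to 3766 and 811. Over all genes, scaling from gene sums moved it from 312 and 587 to 503 and 325 in that comparison, and total counts moved it from 388 and 463 to 606 and 390 in Lgr5 Epcam- against Lgr5 Epcam+ and from 2113 and 1324 to 1599 and 1740 in Lgr5 Epcam- against HF. Leaving out either Lgr5 Epcam+ sample leaves no test; the log2 ratio to HF then ran from -3.10 to -2.84 for Sox17 and from -2.06 to -1.62 for Tek. No paired analysis was run, because replicate numbers come from the sample titles and do not say which samples share an animal. Whether Lgr5 Epcam- and Lgr5 Epcam+ samples share an animal is not known here, and the tests treat them as separate. Lone samples in 4 of 5 groups and low counts over background in HF and IFE limit these values.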
